A study of Mus musculus with 6 samples.

Results

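The genes described here are 10 markers of the thalamus, the group of relay nuclei that lies directly against the habenula and can enter a habenular dissection. They were taken by gene symbol from a table of 55359 genes, and all 10 (Tcf7l2, Gbx2, Ntng1, Rora, Prkch, Synpo2, Plekhg1, Slitrk6, Shox2 and Patj) were found, each on 1 row. The assay was bulk RNA sequencing, on total RNA of habenular tissue taken from C57BL/6 mice at an age of 2 months. The libraries comprised 3 labelled Tet2 cKO (a conditional knockout of the DNA dioxygenase gene Tet2) and 3 labelled wild type (WT). The labels name no Cre driver or deleted exons and do not say if every library is its own animal, and p-values therefore measure only the spread between these libraries, which may be technical.

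Thalamus and habenula arise side by side in the diencephalon. The thalamus sends glutamatergic axons to the cortex, while the habenula connects the forebrain with the midbrain and carries medial neurons that use acetylcholine and tachykinins. Several genes that pattern the thalamus, with Tcf7l2 the best known, are also active in habenular neurons, so a thalamic marker in a habenular dissection need not come from thalamic cells. In bulk RNA, fewer cells of a type and less RNA per cell cannot be told apart.

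The libraries held between 16089676 and 17917987 counts. Tet2 itself had 4.47, 4.02 and 3.96 FPKM (a count scaled to exonic length and library size) under the Tet2 cKO label, against 3.45, 3.46 and 3.71 FPKM in WT. The log2 difference was 0.22 (SE 0.0768; edgeR adjusted p = 0.9999). A count over the whole gene keeps the exons that a deletion leaves in place. The targeted transcript was thus not lower under the knockout label, and every direction given here is that of the label. Markers of the habenula were found in every library, which does not measure the share of habenula in the tissue. Pou4f1, a transcription factor of habenular neurons, had 7.61 to 17.01 FPKM over the 6 libraries, and Gpr151, a habenular orphan receptor, 37.5 to 81.0 FPKM. WT replicate 3 stood apart, with the lowest level of both of these genes and a score of -30.4 on the first principal component, where the other libraries lay between -8.12 and 14.8.

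None of the 10 genes passed the test between the genotypes. Across 14539 genes whose mean reached 1 FPKM, edgeR's quasi-likelihood test called 0% at a Benjamini-Hochberg adjusted p under 0.05, and DESeq2 called 4 genes. At an unadjusted p under 0.05, edgeR called 374 genes, or 2.57%, of which those higher under the Tet2 cKO label made up 0.894% of the tested genes and those lower 1.68%. All 10 thalamic genes passed the filter, and 0 of 10 was called at either threshold. DESeq2 and limma also called 0 of the 10. Over all tested genes 6.8% had groups that did not overlap in FPKM (3.34% with Tet2 cKO higher and 3.46% with Tet2 cKO lower), and 0 of the 10 thalamic genes did. Their median log2 difference (Tet2 cKO minus WT) was -0.04, with 3 genes above 0 and 7 below. The median over all tested genes was -0.0021, with 50.9% of them below 0. The 95% intervals of all 10 genes lay within a 1.5-fold change in either direction, reaching from 0.73-fold (the lower bound of Gbx2) to 1.22-fold (the upper bound of Slitrk6). Differences within those bounds remain possible. Leaving out 1 library at a time changed the sign of 8 of the 10 differences, so no direction is assigned to any of them except as a value.

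**Figure D1:**
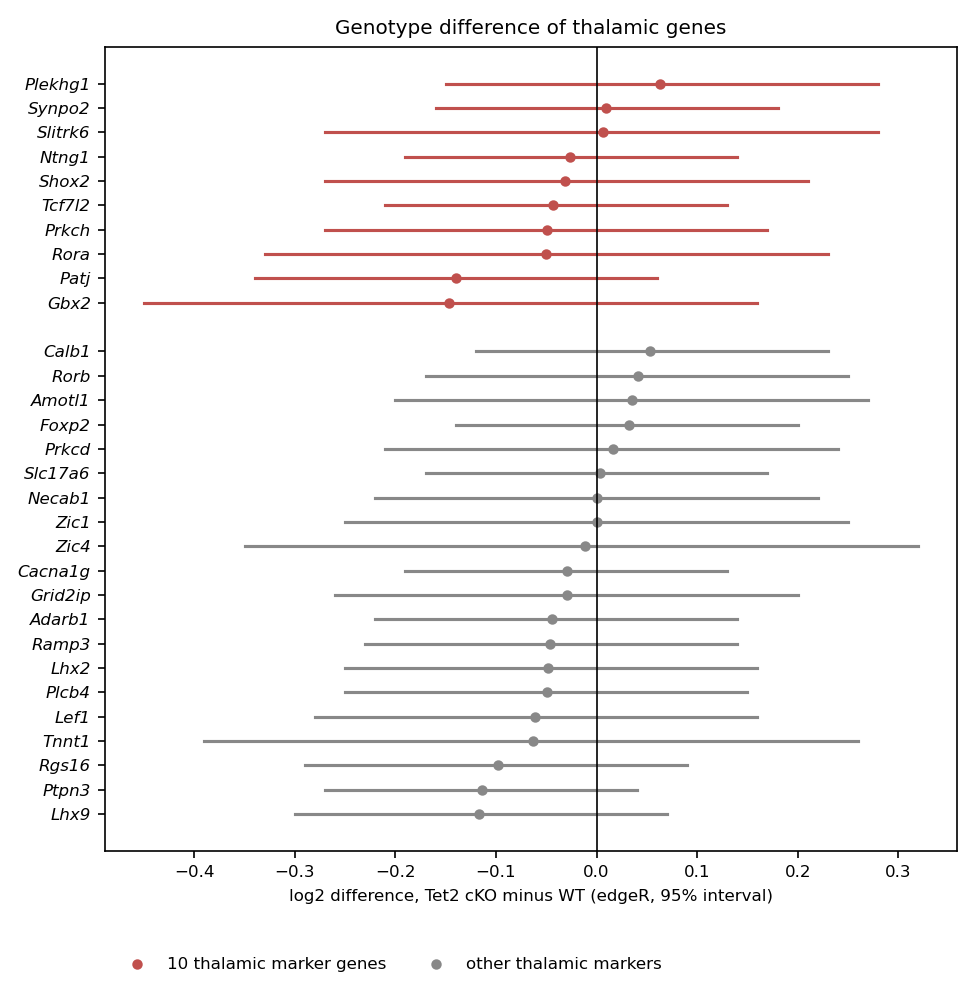
Log2 difference between Tet2 cKO and WT (edgeR, dots) with its 95% interval (lines) for the 10 thalamic marker genes, on top, and for 20 other thalamic markers, below. Every interval among the 10 genes includes 0, from Gbx2 at -0.15 to Plekhg1 at 0.06.

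The levels formed a range from 48.4 FPKM (Tcf7l2) down to 7.5 FPKM (Prkch), as means over 6 libraries. FPKM is per exonic length and so can be compared between genes only roughly, because a fixed exonic size was used for each gene. An error in that size would be the same in every library, so the order below is one of FPKM values. Tcf7l2 exceeded Shox2, the next gene at 45.0 FPKM, in 4 of 6 libraries, by 3.43 ± 3.89 FPKM (SD of the difference, n = 6), and Shox2 exceeded Ntng1, at 43.9 FPKM, in 4 of 6. These 3 therefore shared the top without an order beyond their spread. Ntng1 lay above Plekhg1 (35.9 FPKM) and Plekhg1 above Rora (28.1 FPKM) in 6 of 6 libraries each. Rora and Gbx2 (23.5 FPKM) differed by 4.61 ± 6.27 FPKM and were not separated. Slitrk6 (15.8 FPKM) and Synpo2 (14.6 FPKM) differed by 1.14 ± 1.11 FPKM, with Slitrk6 higher in 5 of 6 libraries, and Patj (8.2 FPKM) and Prkch by 0.695 ± 0.961 FPKM. Tcf7l2, Shox2, Ntng1 and Plekhg1 ranked between the percentiles 91.4 and 94.3 of all tested genes by mean FPKM, and Patj and Prkch at the percentiles 58.7 and 55.9.

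**Figure D2:**
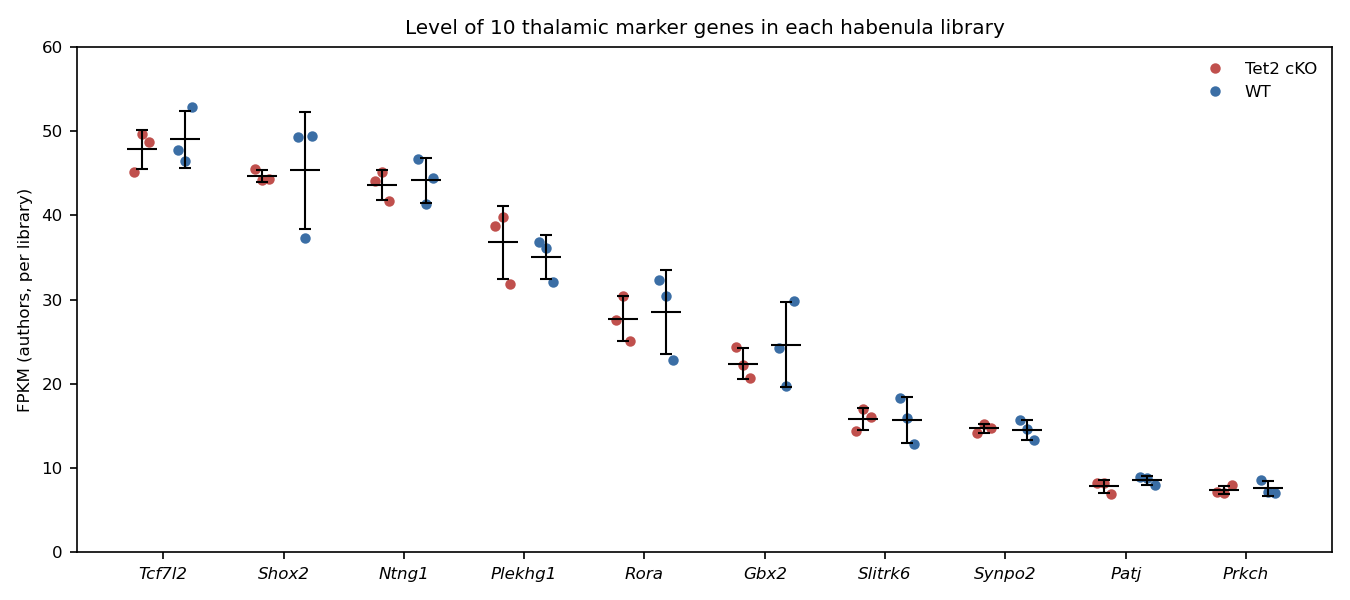
FPKM of the 10 thalamic marker genes, ordered by mean, in 3 libraries labelled Tet2 cKO (left of each pair) and 3 WT libraries (right), with the mean (long tick) and SD (bars). The groups overlap for every gene, and the 3 WT libraries are spread from 37.3 to 49.5 FPKM for Shox2 and from 19.8 to 29.9 FPKM for Gbx2.

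All 10 genes are annotated as protein-coding, and 4 encode transcription factors that help specify or maintain thalamic neurons. Tcf7l2 encodes the high-mobility-group factor that joins beta-catenin in Wnt signalling. Tcf7l2 (ENSMUSG00000024985, chromosome 19, 55741820 to 55933654, plus strand, GRCm38) had 45.2, 49.6 and 48.7 FPKM under the Tet2 cKO label, against 47.8, 46.5 and 52.8 FPKM in WT. The highest value was that of WT replicate 3, and the lowest that of Tet2 cKO replicate 1, which lay just under the WT range. The log2 difference was -0.04 (SE 0.0757, 95% interval -0.21 to 0.13; edgeR adjusted p = 0.9999).

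Gbx2 encodes a homeodomain factor needed in mice for thalamocortical neurons to form. Gbx2 (ENSMUSG00000034486, chromosome 1, 89927956 to 89931179, minus strand) had 24.36, 22.25 and 20.65 FPKM under the Tet2 cKO label, against 24.25, 19.8 and 29.9 FPKM in WT. Both extremes were WT libraries, replicate 3 the highest and replicate 2 the lowest, and all 3 libraries labelled Tet2 cKO lay between them. It had the widest relative spread of the 10 genes, with a coefficient of variation of 15.3% over 6 libraries where counting error alone gives about 3.35%. The log2 difference was -0.15 (SE 0.138, 95% interval -0.45 to 0.16; edgeR adjusted p = 0.9999). Without WT replicate 3 it was 0.03, and without WT replicate 2 it was -0.29 (edgeR unadjusted p = 0.0349, adjusted p = 0.999). That was the smallest unadjusted p of the 10 genes in any setting. In the same fit 428 of 14539 tested genes had an unadjusted p under 0.05. Exons of the noncoding gene D130058E05Rik overlap Gbx2 on the opposite strand. In the libraries labelled Tet2 cKO that gene had 259, 248 and 251 counts, against 250, 221 and 283 counts in WT, and was likewise highest in WT replicate 3 and lowest in WT replicate 2. These counts are not scaled to library size, and WT replicate 2 had the fewest total counts (16089676), so its low count partly follows depth. Because no source used here states whether the counting used strand, reads of the 2 genes cannot be told apart where they overlap.

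Shox2 encodes a short-stature homeobox factor of thalamic projection neurons. Shox2 (ENSMUSG00000027833, chromosome 3, 66971727 to 66981771, minus strand) had 45.46, 44.20 and 44.35 FPKM under the Tet2 cKO label, against 49.3, 37.3 and 49.5 FPKM in WT. The libraries labelled Tet2 cKO differed among themselves by a coefficient of variation of 1.54%, against 15.3% in WT, where replicate 2 was low and the other 2 libraries high. No test of that difference in spread was made. The log2 difference was -0.03 (SE 0.106, 95% interval -0.27 to 0.21; edgeR adjusted p = 0.9999). Exons of Rsrc1, an expressed gene of the opposite strand with 1977 to 2359 counts per library, overlap Shox2.

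Rora encodes a retinoic acid receptor-related orphan receptor that is high in sensory thalamic nuclei. Rora (ENSMUSG00000032238, chromosome 9, 68653786 to 69388246, plus strand) had 27.65, 30.43 and 25.11 FPKM under the Tet2 cKO label, against 32.4, 30.4 and 22.9 FPKM in WT. WT replicate 3 was here the lowest library, the reverse of its place for Gbx2, Tcf7l2 and Shox2. The log2 difference was -0.05 (SE 0.125, 95% interval -0.33 to 0.23; edgeR adjusted p = 0.9999).

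Ntng1 and Slitrk6 encode proteins of the neuronal surface. Ntng1 encodes netrin-G1, a lipid-anchored protein of thalamocortical axons that binds the postsynaptic partner encoded by Lrrc4c. Ntng1 (ENSMUSG00000059857, chromosome 3, 109780040 to 110144011, minus strand) had 44.1, 45.2 and 41.7 FPKM under the Tet2 cKO label, against 46.7, 41.4 and 44.5 FPKM in WT, with a log2 difference of -0.03 (SE 0.0723). It was the steadiest of the 10 genes, with a coefficient of variation of 4.66% over the 6 libraries. Slitrk6 encodes a leucine-rich repeat membrane protein that controls neurite growth and is best known from the inner ear. Slitrk6 (ENSMUSG00000045871, chromosome 14, 110748580 to 110755149, minus strand) had 14.46, 17.02 and 16.05 FPKM under the Tet2 cKO label, against 18.3, 15.9 and 12.8 FPKM in WT. Both extremes were again WT libraries, replicate 1 the highest and replicate 3 the lowest. Its log2 difference was 0.01 (SE 0.124).

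The remaining 4 genes encode proteins of the cytoskeleton, cell polarity and signalling. Synpo2 encodes synaptopodin-2, or myopodin, an actin-binding PDZ protein. Synpo2 (ENSMUSG00000050315, chromosome 3, 123076519 to 123236149, minus strand) had 14.2, 15.2 and 14.8 FPKM under the Tet2 cKO label, against 15.7, 14.6 and 13.3 FPKM in WT, with a log2 difference of 0.01 (SE 0.0769). Plekhg1 encodes a protein with a pleckstrin homology domain. Plekhg1 (ENSMUSG00000040624, chromosome 10, 3740364 to 3967303, plus strand) had 38.8, 39.8 and 31.8 FPKM under the Tet2 cKO label, against 36.9, 36.1 and 32.1 FPKM in WT. Of its libraries labelled Tet2 cKO, 2 lay above every WT library and 1 below every WT library, and the log2 difference was 0.06 (SE 0.0966).

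Patj encodes a multi-PDZ protein of the Crumbs polarity complex. Patj (ENSMUSG00000061859, chromosome 4, 98395785 to 98719603, plus strand) had 8.3, 8.28 and 6.9 FPKM under the Tet2 cKO label, against 8.95, 8.79 and 7.98 FPKM in WT. Replicate 3 was the lowest library in each group. Its log2 difference of -0.14 (SE 0.0903, 95% interval -0.34 to 0.06) was the closest of the 10 to the threshold (exact permutation p = 0.3, where the smallest possible is 0.1; edgeR adjusted p = 0.9999). It kept its sign when any 1 library was left out, as did Plekhg1. Prkch encodes protein kinase C eta. Prkch (ENSMUSG00000021108, chromosome 12, 73584796 to 73778185, plus strand) had 7.2, 7.04 and 7.95 FPKM under the Tet2 cKO label, against 8.65, 7.15 and 7.04 FPKM in WT, with a log2 difference of -0.05 (SE 0.098).

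Over all 6 libraries, the 10 genes did not all rise and fall together, a pattern that depended in part on WT replicate 3. WT replicate 1 had the highest level of 6 of them. WT replicate 3 was at once the highest library for 3 (Tcf7l2, Gbx2 and Shox2) and the lowest for 3 others (Rora, Synpo2 and Slitrk6), and for Prkch it shared the lowest value, 7.04 FPKM, with Tet2 cKO replicate 2. WT replicate 2 was the lowest for Gbx2 and Shox2, and also for Ntng1. Of 45 pairs of genes, 27 correlated positively and 18 negatively over the 6 libraries, with a median Pearson r of 0.28 on log2(FPKM + 1). The exact permutation test gave an unadjusted p under 0.05 for 4 pairs by Pearson's r and for 2 by Spearman's rho, and 0 pairs passed after adjustment over the 45.

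**Figure D3:**
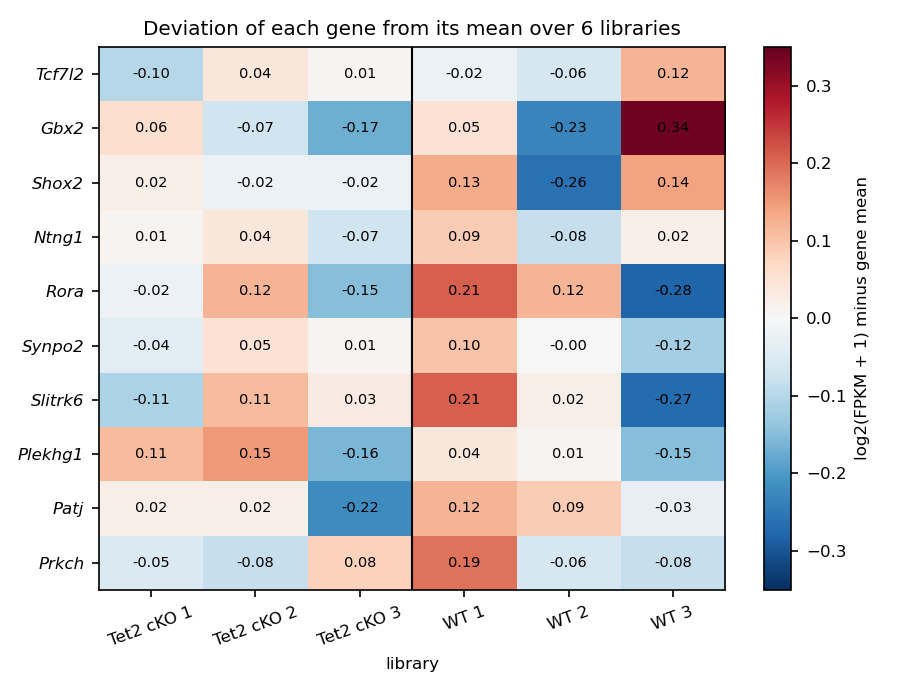
Deviation of each gene (rows) from its own mean over the 6 libraries (columns, Tet2 cKO left of the line and WT right of it), in log2(FPKM + 1), red above and blue below the mean. In WT replicate 3, Gbx2 lay 0.34 above its mean, while Rora lay at -0.28 and Slitrk6 at -0.27.

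The closest pair was Slitrk6 and Synpo2. Both genes had the same order of libraries, from WT replicate 3 at the bottom through Tet2 cKO replicate 1, WT replicate 2, Tet2 cKO replicate 3 and Tet2 cKO replicate 2 to WT replicate 1 at the top. Pearson's r was 0.997 (exact permutation p = 0.00139, the smallest that 6 libraries allow, n = 6; adjusted p = 0.0625 over 45 pairs), and Spearman's rho was 1 (exact permutation p = 0.00278; adjusted p = 0.125). Without the 2 libraries farthest from the median of Synpo2, WT replicates 1 and 3, r was 0.984. Leaving out each library in turn gave 0.993 to 0.999. The genes lie on different chromosomes and share no reads by overlap. Slitrk6 spanned a wider range, from 12.8 to 18.3 FPKM, than Synpo2, from 13.3 to 15.7 FPKM. Among 14538 other tested genes Synpo2 ranked 1 by its r with Slitrk6, and 105 genes reached an r of at least 0.95 with it, the highest such number among the 10 thalamic genes, for which it ran down to 9 (Prkch).

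**Figure D4:**
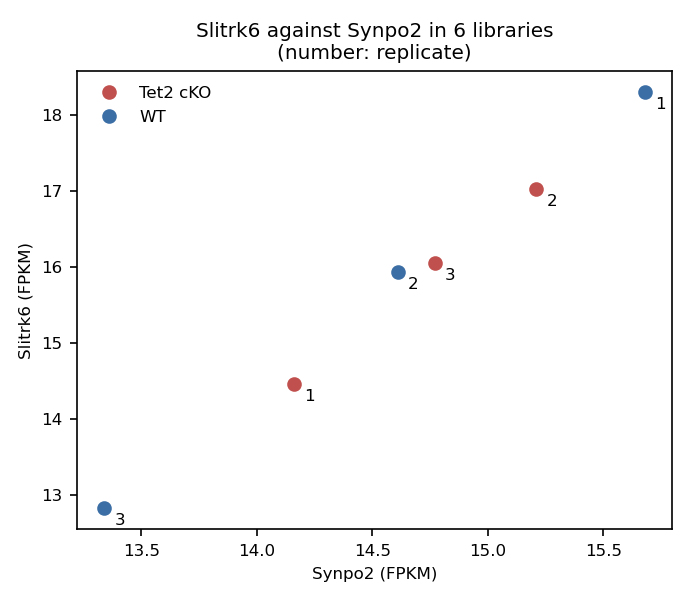
Slitrk6 against Synpo2, in FPKM, with 1 point per library, labelled Tet2 cKO or WT by colour and numbered by replicate. Neither axis starts at 0. The 6 libraries fall in the same order on both axes, from WT replicate 3 (12.8 and 13.3 FPKM) to WT replicate 1 (18.3 and 15.7 FPKM).

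Rora followed both of these genes less closely, with r = 0.840 with Slitrk6 (exact permutation p = 0.0292, adjusted p = 0.5; rho = 0.829, exact permutation p = 0.0583, adjusted p = 0.656). With Synpo2 it was 0.834 (exact permutation p = 0.0347, adjusted p = 0.5; rho = 0.829, exact permutation p = 0.0583, adjusted p = 0.656). Without Tet2 cKO replicate 3 and WT replicate 3, the farthest libraries for Rora, r was 0.963 with Slitrk6 and 0.924 with Synpo2, whereas without WT replicate 3 alone it was 0.627 with Slitrk6 and 0.608 with Synpo2. The other pair under 0.05 was that of the homeobox genes Gbx2 and Shox2, with r = 0.801 (exact permutation p = 0.0444, adjusted p = 0.5) and rho = 0.886 (exact permutation p = 0.0333, adjusted p = 0.656), and r = 0.675 without WT replicates 2 and 3. Across these 2 sets, which were formed from the same correlations, every sign was negative. The strongest was r = -0.612 between Gbx2 and Slitrk6 (exact permutation p = 0.197, adjusted p = 0.737; rho = -0.429, exact permutation p = 0.419, adjusted p = 0.846). The weakest was r = -0.117 between Shox2 and Synpo2 (exact permutation p = 0.808, adjusted p = 0.887). Without WT replicate 3 alone every one of these signs turned positive, with r = 0.092 for Gbx2 and Slitrk6 and 0.467 for Shox2 and Synpo2. Without WT replicates 2 and 3, r between Gbx2 and Slitrk6 was -0.013. Leaving out WT replicate 3 alone turned the sign of 14 of the 45 correlations. Only that of Tcf7l2 and Gbx2 turned from positive to negative (r = 0.572 to -0.243). The others turned from negative to positive, so most pairs were positive without that library.

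The sequences just before the transcription starts of Slitrk6, Synpo2 and Rora, whose levels ran closest together, and of Shox2, from the other set, are shown to set their starts side by side. They are the 250 bases before the start in RefSeq on GRCm38.p6, written in the direction of the gene, at chr14:110755150-110755399, minus strand, chr3:123236150-123236399, minus strand, chr9:68653536-68653785, plus strand and chr3:66981772-66982021, minus strand. Capitals mark TAATTA, the core bound by many homeodomain factors.
Slitrk6: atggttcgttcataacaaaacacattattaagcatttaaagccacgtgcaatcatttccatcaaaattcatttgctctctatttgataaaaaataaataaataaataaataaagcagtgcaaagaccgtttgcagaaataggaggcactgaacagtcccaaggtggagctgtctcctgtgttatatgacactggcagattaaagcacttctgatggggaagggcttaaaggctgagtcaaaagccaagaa
Synpo2: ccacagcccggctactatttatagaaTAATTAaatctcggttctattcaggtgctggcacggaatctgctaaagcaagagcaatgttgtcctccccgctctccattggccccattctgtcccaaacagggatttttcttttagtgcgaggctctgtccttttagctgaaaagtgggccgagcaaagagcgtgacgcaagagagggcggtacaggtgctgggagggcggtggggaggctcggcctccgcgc
Rora: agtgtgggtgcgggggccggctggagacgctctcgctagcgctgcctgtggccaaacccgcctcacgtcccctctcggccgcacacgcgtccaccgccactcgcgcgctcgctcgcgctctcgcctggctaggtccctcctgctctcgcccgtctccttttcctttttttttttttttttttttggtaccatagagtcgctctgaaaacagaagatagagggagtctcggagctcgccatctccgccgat
Shox2: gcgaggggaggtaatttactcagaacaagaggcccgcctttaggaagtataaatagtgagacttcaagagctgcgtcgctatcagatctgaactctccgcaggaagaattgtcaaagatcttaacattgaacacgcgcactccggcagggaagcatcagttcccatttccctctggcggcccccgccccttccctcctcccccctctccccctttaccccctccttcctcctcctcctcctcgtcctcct
The window of Slitrk6 is 37.2% G and C, that of Synpo2 54.4%, that of Rora 61.2% and that of Shox2 55.6%. RefSeq windows matched 9 of the 10 genes. For Plekhg1 the window, chr10:3872417-3872666, lay inside the annotated gene. Those of Gbx2, Ntng1 and Patj held annotated exons. On either strand, CTTTGAT, bound by TCF/LEF factors, was in 0 of the 9, AGGTCA, the core bound by ROR receptors, in 0 of the 9, and TAATTA in 1 of the 9 (Synpo2). Of 32851 RefSeq windows of the same length, 3.21%, 14% and 4.84% held these letters. A match of letters describes the window and is not a binding site. Which start each library used is not known from counts per gene.

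The 10 thalamic genes summed to 270, 279 and 258 FPKM under the Tet2 cKO label, against 289, 258 and 273 FPKM in WT, so that the highest library was 1.12 times the lowest. Their share of all counts was 0.209%, 0.22% and 0.2% under the Tet2 cKO label, against 0.225%, 0.207% and 0.204% in WT. The sum of 8 pan-habenula markers spanned 158 FPKM in WT replicate 3 to 312 FPKM in WT replicate 2, a ratio of 1.97. Under the Tet2 cKO label that sum was 270, 208 and 265 FPKM, against 256, 312 and 158 FPKM in WT. WT replicate 3 thus had the lowest sum of these 8 markers, while its thalamic sum of 273 FPKM stood between those of the other libraries. The sums of the other habenular lists did not follow it. The 12 lateral habenula markers summed to 490, 519 and 523 FPKM under the Tet2 cKO label, against 477, 444 and 539 FPKM in WT, with WT replicate 3 the highest. Of these, Gap43 alone had 196.45 to 272.17 FPKM per library, also highest in WT replicate 3. Necab1, with 72.27 to 92.42 FPKM, is also counted among the 20 other thalamic markers. The 15 medial habenula markers, of which Calb2 alone had 250.90 to 332.01 FPKM per library, summed to 454, 379 and 432 FPKM under the Tet2 cKO label, against 463, 451 and 454 FPKM in WT. By the mean of log2(FPKM + 1), which gives each gene equal weight, WT replicate 3 was the lowest library on all 3 habenular lists, at 4.15 for the pan-habenula, 3.29 for the medial and 3.82 for the lateral markers. Whether the 2 lists differ in spread was not tested.

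**Figure D5:**
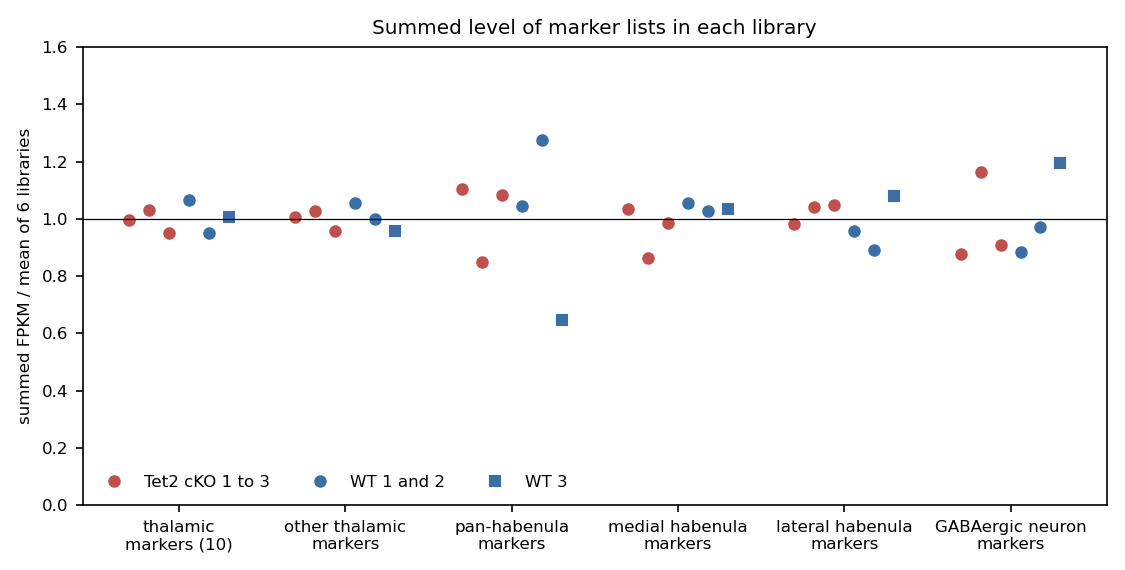
Summed FPKM of 6 marker lists in each library, divided by the mean of the list over the 6 libraries (libraries labelled Tet2 cKO left of WT libraries, and WT replicate 3 as a square). The 10 thalamic genes span a ratio of 1.12 between the highest and lowest library, and the pan-habenula markers a ratio of 1.97.

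Over all 6 libraries, the sign of the relation to the habenula differed between genes, a difference that was not tested. Against the pan-habenula score (mean log2(FPKM + 1) of the 8 markers), Tcf7l2 had r = -0.89 (exact permutation p = 0.0194, n = 6; adjusted p = 0.194 over 10 genes) and rho = -0.89 (exact permutation p = 0.0333, adjusted p = 0.333). Gbx2 had r = -0.82 (exact permutation p = 0.0528, adjusted p = 0.264; rho = -0.60, exact permutation p = 0.242, adjusted p = 0.604) and Shox2 r = -0.66 (exact permutation p = 0.15, adjusted p = 0.5; rho = -0.60, exact permutation p = 0.242, adjusted p = 0.604). These 3 genes were thus lower where the habenular score was higher, without passing the adjustment. Rora, at 0.56, and Slitrk6, at 0.52, had the opposite sign (exact permutation p = 0.237 and p = 0.293, adjusted p = 0.521 each; rho = 0.14 and rho = -0.03, with exact permutation p = 0.803 and p = 1, adjusted p = 1 each). Without Tet2 cKO replicate 2 and WT replicate 3, the libraries farthest from the median score, r was -0.34 for Tcf7l2, -0.74 for Gbx2, -0.99 for Shox2, 0.06 for Rora and -0.38 for Slitrk6. The values for Tcf7l2, Rora and Slitrk6 rested on those libraries. Without WT replicate 3 alone, r was -0.42 for Gbx2, -0.69 for Tcf7l2 and -0.56 for Shox2. The value for Gbx2 thus depended on which libraries were left out, at -0.42 or -0.74 against -0.82 with all 6. Ntng1 also had a negative value, with r = -0.46 (exact permutation p = 0.365, adjusted p = 0.522; rho = -0.71, exact permutation p = 0.136, adjusted p = 0.604), and r was -0.75 without those 2 libraries and -0.67 without WT replicate 3. Leaving out WT replicate 3 alone also turned Rora (r = -0.18), Slitrk6 (-0.43), Synpo2 (-0.51) and Plekhg1 (-0.45) from positive to negative. Prkch then stood at 0.02 and Patj at 0.07. The opposite sign of Rora and Slitrk6 over all 6 libraries thus rested on that library.

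A second list of 20 thalamic genes gave the same picture of the genotypes. All 20 passed the filter, 8 differences were above 0 and 12 below, and the median log2 difference was -0.03. None had an unadjusted edgeR p under 0.05, where 2.57% of all tested genes did, and in none did the groups fail to overlap. The differences ran from -0.12 (Lhx9, a LIM-homeodomain factor) to 0.05 (Calb1, a calcium-binding protein). Slc17a6, the vesicular glutamate transporter of thalamic and habenular neurons, had 118, 130 and 123 FPKM under the Tet2 cKO label, against 132, 118 and 118 FPKM in WT. Prkcd, a kinase gene strong in thalamic relay neurons, had 110, 120 and 93.7 FPKM under the Tet2 cKO label, against 108, 114 and 95.3 FPKM in WT. Replicate 3 was the lowest library of each group for Prkcd, as it was for Patj, Plekhg1 and Rora. The list summed to 840 to 901 FPKM under the Tet2 cKO label and to 841 to 926 FPKM in WT.

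Among relatives and partners of the 10 genes, 1 of 28 tested had an unadjusted edgeR p under 0.05. The share over all tested genes was 2.57%. Of 37 such genes in the table, which include Lef1, Rorb and Prkcd from the thalamic list above, 28 passed the filter, with 13 differences above 0 and 15 below and a median of -0.01. Lef1 and Tcf7, which with Tcf7l2 belong to the TCF/LEF family, had 6.35 to 7.95 FPKM and 1.74 to 3.15 FPKM over the 6 libraries, below the lowest Tcf7l2 value of 45.2 FPKM. Axin2, a target and inhibitor of Wnt signalling, had 12.64, 10.25 and 13.92 FPKM under the Tet2 cKO label, against 13.05, 11.95 and 15.1 FPKM in WT. Lrrc4c, the netrin-G1 partner, had 13.3, 13.7 and 15.0 FPKM under the Tet2 cKO label, against 13.8, 15.2 and 9.5 FPKM in WT, a log2 difference of 0.12 (SE 0.147). Ntng2, the second netrin-G gene, had 2.91 to 5.26 FPKM. Rorb, a relative of Rora, had 6.12 to 7.42 FPKM, and Gbx1, the relative of Gbx2, at most 0.05 FPKM. Among the other SLITRK genes, Slitrk3 had 15.1 to 19.3 FPKM, overlapping the range of Slitrk6. Synpo had 1.77 to 2.31 FPKM. Mpdz, the relative of Patj, had 7.18 to 8.08 FPKM. The gene under 0.05 was Crb2, a Crumbs protein gene, which had 1.18, 1.07 and 1.1 FPKM in the libraries labelled Tet2 cKO, against 1.6, 1.86 and 1.62 FPKM in WT (log2 difference -0.60, SE 0.128; edgeR adjusted p = 0.9999).

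Markers of neighbouring territories differed in how far they reached the libraries. Of 14 markers of the prethalamus and the reticular nucleus, 5 passed the filter. The highest were Pvalb, with 17.30 to 24.85 FPKM over the 6 libraries, and Sst, with 7.24 to 12.35 FPKM. Both are also listed among the GABAergic neuron markers. The transcription factor genes Dlx1, Dlx2, Dlx5 and Dlx6 were at or below 0.17 FPKM in every library. The list summed to 38.5 to 45.7 FPKM under the Tet2 cKO label and to 39.3 to 53.4 FPKM in WT, and 1 gene, Spp1, had an unadjusted p under 0.05 (log2 difference -0.57, SE 0.166; edgeR adjusted p = 0.9999). Of 10 markers of the paraventricular and midline thalamus, 6 passed, and Drd2 and Calb2 had an unadjusted p under 0.05, at -0.54 (SE 0.165) and -0.20 (SE 0.0833; edgeR adjusted p = 0.9999 each). Calb2 is also a gene of the medial habenula and of other neurons. Over all tested genes, 2.57% had an unadjusted edgeR p under 0.05. Spp1, Drd2, Crb2 and the transcription factor genes of the prethalamus were named after their values were seen.

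In the lists of other cell types no gene passed the adjusted threshold with edgeR, and the part of these cell types in the thalamic values was not tested. For the counts below, the share of all tested genes with an unadjusted edgeR p under 0.05 was 2.57%. Choroid plexus markers, all 13 of which passed the filter, summed to 834, 175 and 290 FPKM under the Tet2 cKO label, against 1420, 848 and 455 FPKM in WT, and 10 of the 13 had an unadjusted edgeR p under 0.05, all lower under the Tet2 cKO label. The 9 ependymal markers, of which 8 passed, summed to 45.7 to 57.2 FPKM under the Tet2 cKO label, against 61.6 to 78.3 FPKM in WT, without overlap, and 7 of the 8 had an unadjusted p under 0.05. Hippocampal and dentate markers, 9 of 12 past the filter, summed to 60 to 62.8 FPKM under the Tet2 cKO label, against 66.9 to 72.9 FPKM in WT, without overlap, and 2 of the 9 had an unadjusted p under 0.05. Astrocyte markers lay the other way, with sums of 437, 445 and 444 FPKM under the Tet2 cKO label, against 414, 414 and 387 FPKM in WT, and 3 of the 10 had an unadjusted p under 0.05, 1 of them lower under the Tet2 cKO label. Oligodendrocyte markers summed to 1877, 1732 and 1693 FPKM under the Tet2 cKO label, against 1763, 1609 and 1711 FPKM in WT, with 9 of 10 differences above 0 and 0 of 10 at an unadjusted edgeR p under 0.05. The sums of oligodendrocyte precursor, microglia, and endothelial and mural markers overlapped between the groups. GABAergic neuron markers, 7 of 10 past the filter, summed to 75.0 to 99.5 FPKM under the Tet2 cKO label, against 75.7 to 102 FPKM in WT, overlapping, with 0 of the 7 at an unadjusted edgeR p under 0.05 and the highest sum in WT replicate 3. None of these genes, and none of the prethalamic or midline markers, was at 0 in all 6 libraries.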

How the data were processed

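Total RNA from the habenula was sequenced in 3 libraries labelled Tet2 cKO and 3 labelled WT. The submitters' processing notes name build mm10 and the tools HISAT2 2.0.1, SAMtools 0.1.19, cutadapt 1.9.1 and FastQC 0.10.1. They name no counter, and no source used here states its strand setting. The deposited table holds raw counts per gene and FPKM made by the authors, per the file headers, which equal counts per kilobase of the deposited exonic size and library total within 0.005.

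The members and gene lists were chosen with earlier results of these data known. Genes whose mean reached 1 FPKM were tested with edgeR 4.0.16 (quasi-likelihood, TMM, two-sided, Benjamini-Hochberg, threshold 0.05, no covariate) in R 4.3.3, checked on simulated counts. DESeq2 1.42.0 and limma 3.58.1 were alternatives. Correlations used log2(FPKM + 1) and exact permutation in Python 3.11.15; those with the habenula score were added after the data were seen. Named genes were all members, the other thalamic genes and the relatives and partners, and, in the other lists, the 2 highest genes with a few fixed markers. Positions are those of GENCODE M21 on GRCm38, joined by gene identifier, because only 1494 of 52083 shared identifiers had the deposited start and end. Same-numbered libraries deviated together with correlations of -0.0413, 0.176 and -0.102, so the numbers were not taken to pair them. Counting errors cover counting only.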

Additional observations from a re-analysis of the deposited data

How the results depend on the processing

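In 8 settings that kept all 6 libraries (DESeq2 size factors, upper-quartile scaling, DESeq2, limma with a pseudocount of 1 or 0.1, no filter, edgeR's filterByExpr and the replicate block) no thalamic gene changed sign, and in no setting did any pass the adjusted threshold. The median log2 difference of the 10 genes lay between -0.043 and -0.023 there, with -0.032 under the replicate block, which changed no call among them. Leaving out 1 library at a time gave medians from -0.081 (without WT replicate 2) to 0.044 (without WT replicate 1). By gene, these ranges were -0.29 to 0.03 for Gbx2, -0.09 to 0.02 for Tcf7l2, -0.16 to 0.05 for Shox2, -0.18 to 0.05 for Rora, -0.08 to 0.02 for Ntng1, -0.11 to 0.14 for Slitrk6, -0.04 to 0.07 for Synpo2, -0.1 to 0.06 for Prkch, -0.18 to -0.05 for Patj and 0.0028 to 0.16 for Plekhg1. Over all genes, where edgeR called 0 (374 at an unadjusted p under 0.05), DESeq2 called 4, edgeR with filterByExpr 2 and edgeR without a filter 49, and leaving out 1 library gave 0 to 3 (1 without WT replicate 2, 3 without WT replicate 3). The replicate block gave 0 calls, with 346 genes at an unadjusted p under 0.05. The cause of these changes was not tested. With a pseudocount of 0.1 in place of 1, the difference in mean log2 level (Tet2 cKO minus WT) was -0.027 in place of -0.025 for the 10 thalamic genes, -0.017 under both for the other thalamic markers, and 0.093 in place of 0.087 for the pan-habenula markers. With 3 libraries a group, the interval of each gene and not its p sets what could have been seen.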
